A study of Homo sapiens with 6 samples.

Results

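The kinesin superfamily was examined in H23 cells, a human lung adenocarcinoma line, after treatment with a HOTAIR-N siRNA, directed at a form of HOTAIR, a long non-coding RNA of the HOXC locus, and after a control siRNA. Cells were transfected with Lipofectamine RNAiMAX and total RNA was taken 48 hours later from 3 independent transfections per siRNA, so that the data hold 3 libraries with HOTAIR-N siRNA and 3 with control siRNA. All libraries come from this 1 cell line, and both groups carried the transfection reagent and an siRNA. Kinesins were taken by symbol, as KIF or KIFC followed by a number and at most 1 further letter, with KIF23 left out. This gave 41 of the 27968 genes listed, of which 37 passed the filter on low counts and were tested among 15072 genes. Grouped by textbook role, 13 were mitotic kinesins, 15 cargo transport kinesins, 6 kinesins of cilia and hedgehog signalling, and 7 others.

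Kinesins are motor proteins that use ATP to move along microtubules or to take microtubule ends apart, and most walk towards the plus end. Mitotic kinesins build the spindle, attach and move chromosomes and complete cytokinesis, and their transcripts are known to peak in G2 and mitosis. Transport kinesins carry vesicles, mitochondria and membrane proteins through the cytoplasm in all phases of the cell cycle, bound to their cargo by light chains and adaptor proteins.

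With HOTAIR-N siRNA, 10 of the 11 mitotic kinesins tested fell and 0 rose, by log2 fold changes between -0.28 and -0.85 in those that passed. Of the 15 transport kinesins, 5 fell, 3 rose and 7 did not pass the test. Over all genes tested, 28.8% fell and 28.7% rose. Single transport kinesins moved further than any mitotic kinesin. KIF3B, a kinesin-2 motor subunit, fell to 27.5% of its level with control siRNA, while KIF5A, a kinesin-1 heavy chain, rose to 240% and KIFC2 to 210%. In KIFC3 the gene total did not pass the test, but isoforms with a start site inside the gene made up a larger share with HOTAIR-N siRNA.

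The sequences just upstream of start sites are shown first, because a pair of short elements is known from promoters of genes expressed in G2 and mitosis. The letters CCAAT mark the box bound by NF-Y. The cell cycle genes homology region, or CHR, was searched as TTTGAA and as the variant form TTCGAA. Each line gives the 120 bases before a RefSeq start site, 5′ to 3′ on the strand of the gene, in build GRCh38.p14. Capitals mark the CCAAT box and the CHR on either strand, so that ATTGG in the printed strand is a box on the other strand, and TTCAAA likewise a CHR.
KIF18A (chr11:28108157-28108276, minus strand): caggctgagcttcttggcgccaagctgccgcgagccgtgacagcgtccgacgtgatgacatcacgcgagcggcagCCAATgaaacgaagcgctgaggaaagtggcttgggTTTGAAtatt
KIF4A (chrX:70289984-70290103, plus strand): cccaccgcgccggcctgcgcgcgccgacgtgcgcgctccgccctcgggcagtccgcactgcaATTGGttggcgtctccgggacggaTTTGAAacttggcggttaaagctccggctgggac
KIF11 (chr10:92593010-92593129, plus strand): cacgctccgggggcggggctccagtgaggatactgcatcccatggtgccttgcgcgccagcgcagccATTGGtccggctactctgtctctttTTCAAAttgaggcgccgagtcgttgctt
KIF20A (chr5:138178992-138179111, plus strand): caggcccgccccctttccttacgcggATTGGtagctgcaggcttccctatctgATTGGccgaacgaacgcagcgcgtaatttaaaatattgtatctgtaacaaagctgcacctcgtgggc
KIF2C (chr1:44739717-44739836, plus strand): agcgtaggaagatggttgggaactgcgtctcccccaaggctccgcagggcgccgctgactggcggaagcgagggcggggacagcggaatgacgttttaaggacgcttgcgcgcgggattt
KIF3B (chr20:32277531-32277650, plus strand): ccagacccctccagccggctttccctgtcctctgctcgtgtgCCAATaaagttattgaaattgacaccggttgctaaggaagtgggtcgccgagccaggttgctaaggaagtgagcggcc
KIF5B (chr10:32056426-32056545, minus strand): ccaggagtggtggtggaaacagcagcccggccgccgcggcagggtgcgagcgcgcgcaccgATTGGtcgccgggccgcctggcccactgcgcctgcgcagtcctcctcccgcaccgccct

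The mitotic kinesins KIF18A, KIF4A and KIF11 held both elements in this order within 60 bases of the start, with the CCAAT box beginning at -45, -58 and -53 and the CHR at -10, -34 and -28, counted from the start site. KIF20A held CCAAT boxes at -94 and -67 and neither searched form of the CHR. KIF2C held no CCAAT box and neither searched form. Other forms of the CHR were not searched. Over the full window of the RefSeq table, 250 bases before to 50 after the start, either form of the CHR on either strand stood in 11 of the 14 promoters of mitotic kinesins (78.6%), in 1 of 16 of transport kinesins (6.25%, KIF5B) and in 16.4% of all 35116 promoters of 300 bases. The CCAAT box stood in 71.4% of promoters of mitotic kinesins, 31.2% of transport kinesins and 34.6% of all. Both elements together stood in 64.3% of promoters of mitotic kinesins, 6.25% of transport kinesins and 6.38% of all. In all, 42 promoters of 33 of the 41 kinesins were in the table. They covered all 13 mitotic kinesins but 11 of the 15 transport kinesins, with none for KIF5A, KIFC2 or KIFC3. The promoters of KIF22 overlap and share a CHR, which is counted in both. The promoter of KIF4B, a gene too low to be tested, is counted beside that of KIF4A, which it nearly matches around both elements. A match in these letters is a description and not a bound site, and no binding was measured here.

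The libraries held between 32715361 and 36578681 expected counts. HOTAIR, the targeted gene, had 2.26, 1.87 and 1.99 TPM (transcripts scaled to length and to a fixed total per library) with HOTAIR-N siRNA, against 4.19, 3.87 and 4.87 TPM with control siRNA. All HOTAIR-N siRNA libraries were below all control siRNA libraries (log2 fold change -1.04, SE 0.14, edgeR quasi-likelihood adjusted p 1.3e-05). Of the epithelial markers, KRT8 and KRT18 stood at 1334 TPM or more in every library, while KRT19, EPCAM and the lung markers NKX2-1, NAPSA and SFTPB were below 10 TPM, SFTPB at or near 0. KRT18 fell (log2 fold change -0.71) and NKX2-1 rose (1.02). The 5 fibroblast markers summed to between 14.8 and 15.2 TPM with HOTAIR-N siRNA and between 5.26 and 5.93 with control siRNA, nearly all of it COL1A1 and LUM, which rose, with COL1A2 and DCN at or near 0. The 3 endothelial markers summed to below 1 TPM and, of the 4 leukocyte markers, CD68 alone was above 0.1 TPM. The part of these markers in the kinesin results was not tested.

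**Figure D1:**
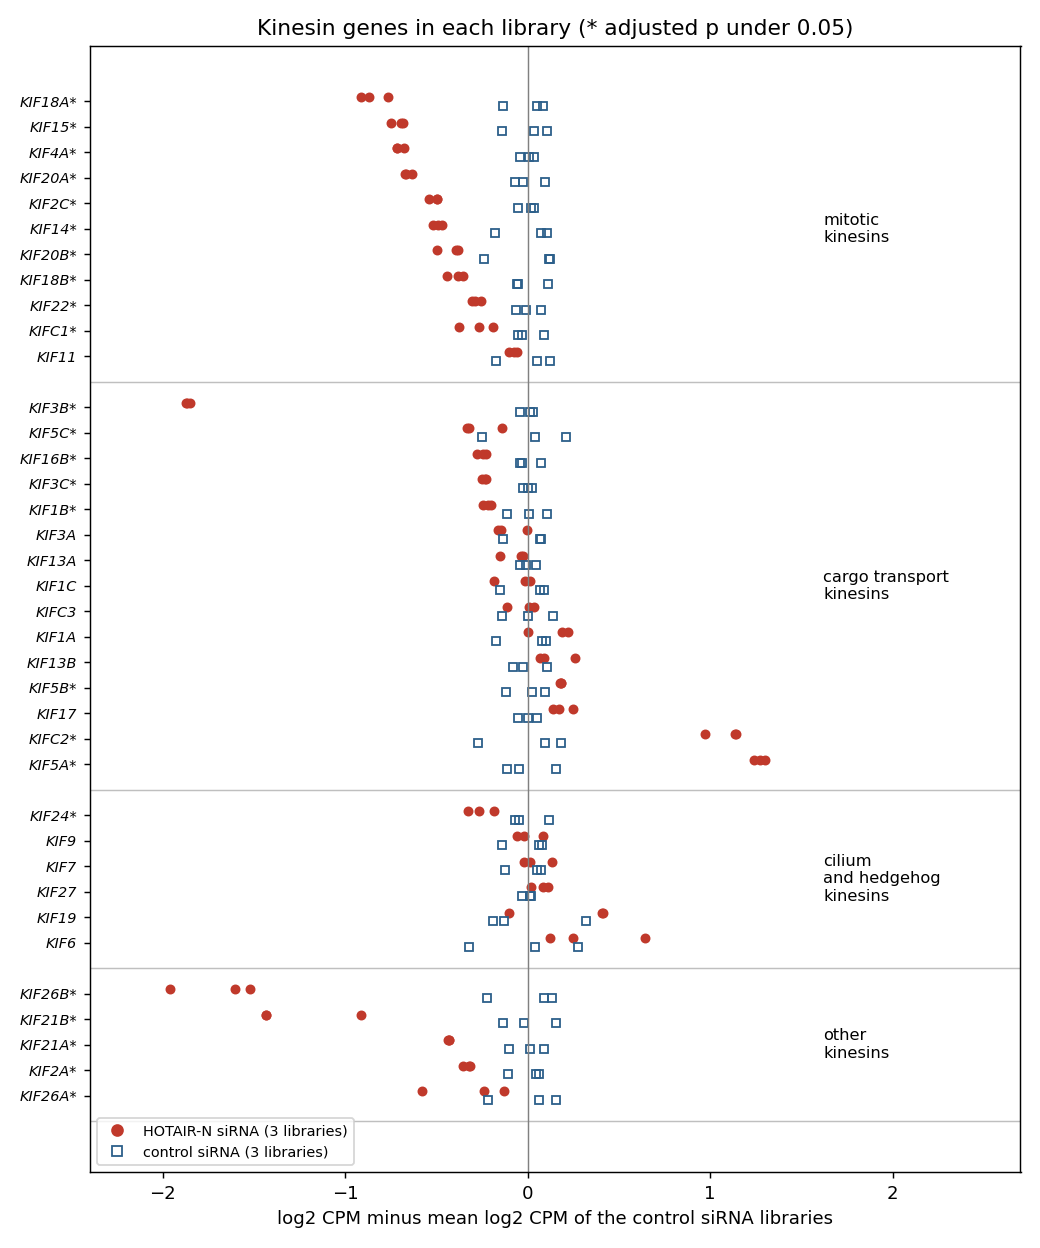
Each kinesin tested is a row, with the log2 of its CPM (counts scaled to library size) in each library minus the mean of the 3 control siRNA libraries on the x axis. Filled circles are HOTAIR-N siRNA and open squares control siRNA libraries, and an asterisk marks an edgeR adjusted p under 0.05. All mitotic kinesins but KIF11 have their circles left of their squares, and among transport kinesins KIF3B lies far to the left and KIF5A and KIFC2 far to the right.

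The mitotic kinesins were compared first. Across the transcriptome 28.8% of the genes tested fell and 28.7% rose, 57.5% in all, by edgeR's quasi-likelihood test at an adjusted p under 0.05. Of all 37 kinesins tested, 21 fell and 3 rose. Of 11 mitotic kinesins tested, 10 fell and 1, KIF11, did not pass. Their median log2 fold change was -0.50, beside 0.01 over all genes tested and -0.06 over the 15 transport kinesins. In the 10 that fell, all 3 libraries with HOTAIR-N siRNA were below all 3 with control siRNA, a separation found in this direction for 31.3% of all genes. The difference between the classes was described and not tested, since each class is a list of chosen genes. In bulk RNA, fewer cells in a phase or type and less RNA per cell cannot be told apart.

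Among kinesins that act on chromosomes and kinetochores, KIF18A, a kinesin-8 motor that dampens the movements of chromosomes at the metaphase plate, had 43.6, 40.5 and 39.4 CPM with HOTAIR-N siRNA, against 67.4, 76.6 and 78.5 CPM with control siRNA. The log2 fold change was -0.85 (SE 0.07, edgeR adjusted p 1.2e-07), the lowest of the mitotic kinesins. KIF18A was also among the 2 mitotic kinesins whose fall passed the edgeR test against a fold of 1.5 (adjusted p 0.0028), which 5.77% of all genes passed downwards. KIF18B, its relative on astral microtubules, had 85.5, 89.2 and 91.0 CPM with HOTAIR-N siRNA, against 126, 112 and 112 CPM with control siRNA (log2 fold change -0.39, SE 0.06, edgeR adjusted p 6.3e-05). The groups of both genes stood apart without overlap.

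KIF2C, also called MCAK, is a kinesin-13 that takes microtubule ends apart and frees wrongly attached chromosomes. It had the highest mean level per length of the kinesins, at 133 ± 1.6 TPM with HOTAIR-N siRNA and 196 ± 3.2 TPM with control siRNA (SD, n = 3 each), although with HOTAIR-N siRNA KIF5B stood close to it at 130 ± 1.2 TPM. Its log2 fold change was -0.51 (SE 0.05, edgeR adjusted p 7.5e-07), and the libraries gave 193, 193 and 188 CPM with HOTAIR-N siRNA, against 276, 263 and 280 CPM with control siRNA. KIF2B, a kinesin of the same family, had 0 counts in all 6 libraries.

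The chromokinesins bind chromosome arms. KIF4A, which also works with PRC1 to set the length of the central spindle, had 182, 181 and 186 CPM with HOTAIR-N siRNA, against 290, 300 and 305 CPM with control siRNA. Its log2 fold change was -0.70 (SE 0.05, edgeR adjusted p 2.35e-08), and it passed the test against a fold of 1.5 as well (edgeR adjusted p 0.035). KIF4B, a near-identical copy on chromosome 5, had 1 to 12 counts, too few to be tested, and reads of the pair could be divided between them. KIF22, the motor that pushes chromosome arms away from the poles, fell less, with a log2 fold change of -0.29 (SE 0.05, edgeR adjusted p 0.0004).

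Of the motors that set spindle polarity, KIF11, which slides antiparallel microtubules apart to separate the poles, averaged 151 ± 2.5 CPM with HOTAIR-N siRNA and 160 ± 16 CPM with control siRNA (SD, n = 3 each). The groups overlapped, and the log2 fold change was -0.08 (SE 0.07, edgeR adjusted p 0.31). Control replicate 1, the lowest of the control libraries at 141 CPM beside 173 and 165 CPM in the others, decided this value. Without it the log2 fold change of KIF11 was -0.16, and the fall passed (edgeR adjusted p 0.0059). KIF15, which can take over the task of KIF11 in keeping a spindle bipolar, had 37.8, 39.6 and 39.2 CPM with HOTAIR-N siRNA, against 57.7, 65.1 and 68.2 CPM with control siRNA, with no overlap (log2 fold change -0.71, SE 0.07, edgeR adjusted p 5.9e-07). KIFC1, a minus-end motor that clusters centrosomes in tumour cells, fell by -0.28 (SE 0.06, edgeR adjusted p 0.0013).

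The remaining 3 mitotic kinesins, which act at the midzone or in cytokinesis, all fell. KIF20A, which brings the passenger complex to the central spindle, had 99.0, 96.5 and 96.8 CPM with HOTAIR-N siRNA, against 151, 146 and 164 CPM with control siRNA (log2 fold change -0.66, SE 0.06, edgeR adjusted p 1.8e-07). KIF14, which holds citron kinase at the midbody, had 96.0, 92.8 and 94.7 CPM with HOTAIR-N siRNA, against 118, 140 and 143 CPM with control siRNA (log2 fold change -0.50, SE 0.07, edgeR adjusted p 2.2e-05). KIF20B, needed for the late steps of cytokinesis, had 96.8, 89.5 and 96.2 CPM with HOTAIR-N siRNA, against 107, 137 and 137 CPM with control siRNA (log2 fold change -0.43, SE 0.08, edgeR adjusted p 0.0004). In each of the 3 genes the highest HOTAIR-N siRNA library lay below the lowest control siRNA library. Of the 3, KIF20B came closest, with control replicate 1 at 107 CPM.

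**Figure D2:**
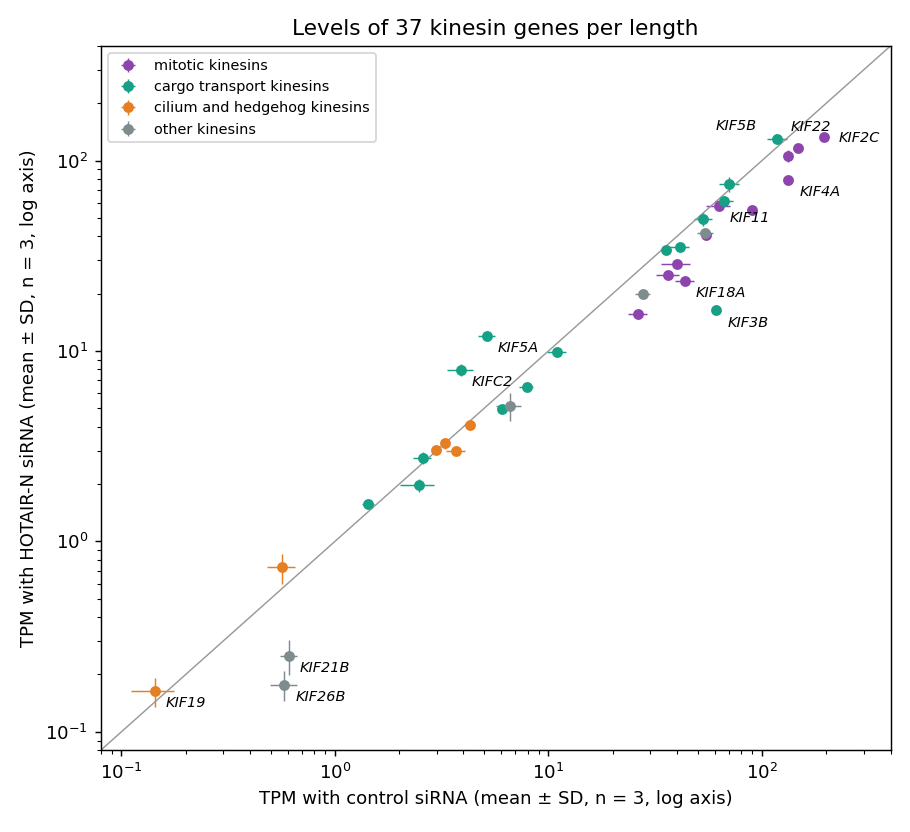
Mean TPM with HOTAIR-N siRNA on the y axis is plotted against mean TPM with control siRNA on the x axis for the 37 kinesins tested, on log axes with bars of 1 SD (n = 3 each) and a line of equal levels. Mitotic kinesins lie at 15.6 to 133 TPM with HOTAIR-N siRNA and 26.3 to 196 TPM with control siRNA, all below the line, while transport kinesins spread over 1.58 to 130 TPM with HOTAIR-N siRNA and 1.43 to 118 TPM with control siRNA on both sides of it.

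Genes that work with mitotic kinesins were counted next. Of 15 listed partners, 13 fell, 1 rose and 1 did not pass, beside 28.8% of all genes that fell and 28.7% that rose. Their median log2 fold change was -0.39. CENPE, itself a kinesin of the kinetochore under another kind of symbol, had 23.7, 24.0 and 24.1 TPM with HOTAIR-N siRNA, against 36.7, 50.5 and 46.6 TPM with control siRNA (log2 fold change -0.85, edgeR adjusted p 3.9e-07). TPX2, which targets KIF11 and KIF15 to spindle microtubules, had a log2 fold change of -0.61 (edgeR adjusted p 1.7e-07), NUSAP1, which bundles spindle microtubules, had -0.66 (2.3e-07), and HMMR, a spindle protein that binds TPX2, had -0.86 (4.3e-07). RAN, the GTPase that releases spindle factors around chromosomes, was the partner that rose (0.28, edgeR adjusted p 0.00053).

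Markers of the cell cycle were set beside them. All 11 markers of G2 and mitosis fell, beside 28.8% of all genes, with a median log2 fold change of -0.47, close to the -0.50 of the mitotic kinesins. Their summed level lay between 2153 and 2211 TPM with HOTAIR-N siRNA and between 3069.6 and 3317 TPM with control siRNA. Examples were TOP2A with a log2 fold change of -0.70, BUB1B with -0.63, BUB1 with -0.57 and CDC20 with -0.50. Of 14 S phase markers, 7 fell and 1 rose, beside 28.8% and 28.7% of all genes, with a median of -0.12. The number called in either direction was close to the 57.5% of all genes, but nearly all of these calls were falls. Those with the smallest p were MCM6 (-0.51), MCM3 (-0.34), RRM2 (-0.22) and CCNE1 (-0.27). The part of these markers in the change of the mitotic kinesins was not tested.

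The transport kinesins were compared next. Of 15, 5 fell and 3 rose, beside 28.8% and 28.7% of all genes, and their summed level lay between 427 and 460.2 TPM with HOTAIR-N siRNA and between 467 and 522 TPM with control siRNA. The sums of mitotic kinesins lay between 669 and 691 TPM with HOTAIR-N siRNA and between 929.5 and 986 TPM with control siRNA. Against a fold of 1.5, 2 transport kinesins rose (KIF5A and KIFC2) and 1 fell (KIF3B), beside 5.51% of all genes upwards and 5.77% downwards. The 3 libraries with HOTAIR-N siRNA lay above all 3 with control siRNA in 4 transport kinesins and below them in 4, separations found in 31.6% and 31.3% of all genes.

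KIF3B pairs with KIF3A and the adaptor KIFAP3 in the heterotrimeric kinesin-2 motor, which drives transport into cilia and carries vesicles in many cells. KIF3B had 52.3, 51.6 and 51.7 CPM with HOTAIR-N siRNA, against 183, 192 and 190 CPM with control siRNA. The log2 fold change was -1.86 (SE 0.05, edgeR adjusted p 8.9e-12), and the fall passed the test against a fold of 1.5 (edgeR adjusted p 1.6e-10). The 3 libraries of each group differed by far less than the groups did, and KIF3B was the kinesin with the largest change. Its promoter, printed above, held the CCAAT box at -78 and neither searched form of the CHR.

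The partners of KIF3B were looked at in turn. KIF3A averaged 9.87 ± 0.52 TPM with HOTAIR-N siRNA and 10.9 ± 1.1 TPM with control siRNA (SD, n = 3 each), with a log2 fold change of -0.11 that did not pass (SE 0.08, edgeR adjusted p 0.24). Without control replicate 1 it was -0.17 and passed (edgeR adjusted p 0.033). KIF3C, which can replace KIF3B beside KIF3A, fell to 4.97 ± 0.081 TPM with HOTAIR-N siRNA, against 6.04 ± 0.25 TPM with control siRNA (log2 fold change -0.24, SE 0.07, edgeR adjusted p 0.0093). KIFAP3 rose, with 32.4, 32.4 and 31.9 TPM with HOTAIR-N siRNA, against 20.5, 24.7 and 25.9 TPM with control siRNA (log2 fold change 0.49, SE 0.08, edgeR adjusted p 5.6e-05). KIF17, the kinesin-2 that works without these partners, had a log2 fold change of 0.19 that did not pass (edgeR adjusted p 0.2).

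Ratios of TPM describe the balance within the kinesin-2 motor. KIF3B transcripts stood at 1.66 ± 0.088 times the TPM of KIF3A with HOTAIR-N siRNA and at 5.62 ± 0.33 times with control siRNA (SD, n = 3 each). Against the TPM of KIFAP3 the ratio was 0.507 ± 0.007 with HOTAIR-N siRNA and 2.6 ± 0.23 with control siRNA. KIF3B thus stood below its adaptor in every library with HOTAIR-N siRNA and above it in every library with control siRNA. Of the TPM of KIF3A, KIF3B and KIF3C together, KIF3B made up 52.4 ± 0.78% with HOTAIR-N siRNA and 78.3 ± 0.47% with control siRNA. Protein levels were not measured.

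**Figure D3:**
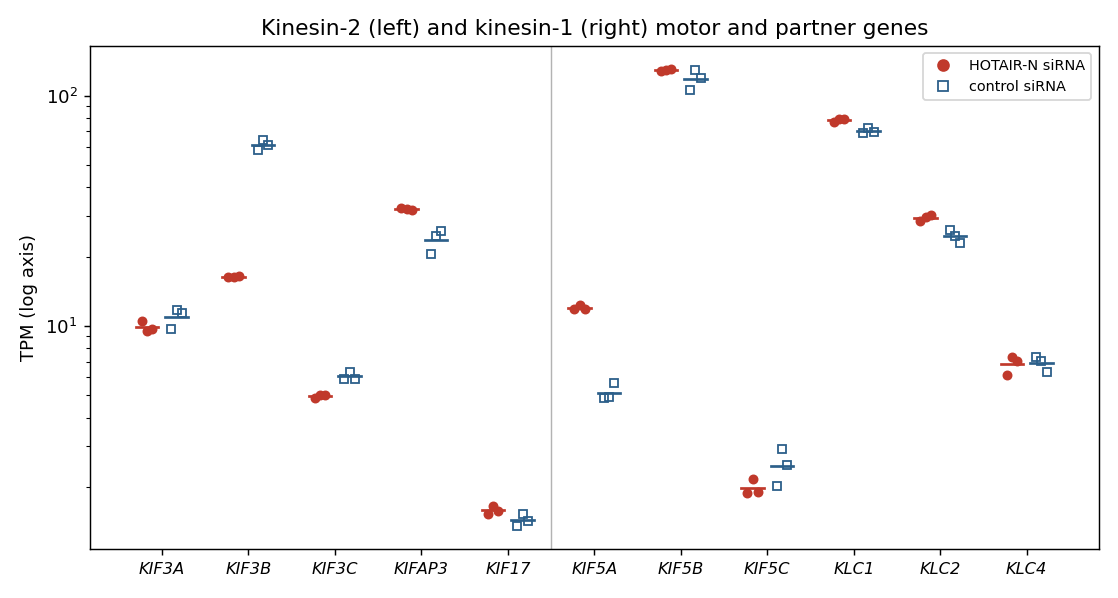
The TPM of kinesin-2 genes (left of the line) and kinesin-1 genes (right) is given on a log axis for each library, with HOTAIR-N siRNA as filled circles left of control siRNA as open squares and a bar at each group mean. KIF3B stands at 16.3 TPM with HOTAIR-N siRNA and 61.2 TPM with control siRNA and KIFAP3 moves the other way, while KIF5A stands at 12 TPM with HOTAIR-N siRNA and 5.14 TPM with control siRNA beside the far more abundant KIF5B.

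Kinesin-1 is built from a pair of heavy chains, KIF5A, KIF5B or KIF5C, and light chains that bind cargo. KIF5A, known mainly from neurons, had 36.4, 37 and 35.6 CPM with HOTAIR-N siRNA, against 14.6, 13.9 and 16.8 CPM with control siRNA. It rose by a log2 fold change of 1.27 (SE 0.08, edgeR adjusted p 4.8e-09; against a fold of 1.5, adjusted p 1.1e-06), without overlap of the groups. KIF5B, the heavy chain found in most cells, rose by 0.18 (SE 0.06, edgeR adjusted p 0.016), with 130 ± 1.2 TPM with HOTAIR-N siRNA and 118 ± 12 TPM with control siRNA (SD, n = 3 each). KIF5A made up 8.36 ± 0.16% of the TPM of the 3 heavy chains with HOTAIR-N siRNA and 4.11 ± 0.48% with control siRNA.

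KIF5C, another heavy chain of neurons, was the weakest call among the transport kinesins. It had 6.89, 7.79 and 6.82 CPM with HOTAIR-N siRNA, against 7.23, 9.92 and 8.84 CPM with control siRNA, and the groups overlapped. The log2 fold change was -0.27 (SE 0.11), at an edgeR adjusted p of 0.05 that fell just under the threshold. The call was lost without HOTAIR-N siRNA replicate 1 (-0.25, adjusted p 0.12) or 3 (-0.24, 0.15), without control replicate 2 (-0.17, 0.24) or 3 (-0.26, 0.1), with DESeq2 (-0.28, 0.07) and limma-voom (-0.26, 0.068), and with upper-quartile sizes (-0.25, 0.063), unscaled sizes (-0.25, 0.07) or a stricter filter (-0.26, 0.06).

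The minus-end motor KIFC2, described from axonal transport in mice, had 12.2, 13.6 and 13.7 CPM with HOTAIR-N siRNA, against 6.62, 5.13 and 7.05 CPM with control siRNA. It rose by a log2 fold change of 1.07 (SE 0.11, edgeR adjusted p 8.3e-07; against a fold of 1.5, adjusted p 0.00068). Every HOTAIR-N siRNA library lay above every control siRNA library. Within the kinesin-14 family of KIFC genes, KIFC1 stayed the most abundant, with 60.4 ± 0.45% of the TPM of the 3 genes with HOTAIR-N siRNA and 65.2 ± 1.3% with control siRNA, and KIFC2 made up 4.54 ± 0.1% with HOTAIR-N siRNA and 1.93 ± 0.33% with control siRNA.

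The KIF1, KIF13 and KIF16 motors carry synaptic vesicle precursors, mitochondria and endosomes. KIF1B fell by a log2 fold change of -0.23 (SE 0.06, edgeR adjusted p 0.0045) and KIF16B, which moves early endosomes, by -0.25 (SE 0.07, edgeR adjusted p 0.0068), both without overlap. KIF1A, KIF1C, KIF13A, a motor of recycling endosomes, and KIF13B did not pass, with log2 fold changes between -0.07 and 0.14. KIF1A, a vesicle motor of neurons, was the second most abundant transport kinesin per length at 75.1 ± 6.7 TPM with HOTAIR-N siRNA and 70.4 ± 7.7 TPM with control siRNA (SD, n = 3 each). Without HOTAIR-N siRNA replicate 1 its log2 fold change was 0.20 and passed (edgeR adjusted p 0.049), beside 0.14 with all libraries (adjusted p 0.14).

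Of 23 listed adaptors of transport kinesins, 10 rose, 2 fell and 11 did not pass, beside 28.7% of all genes that rose and 28.8% that fell. The median log2 fold change was 0.15. The largest increases were in MAPK8IP2 and MAPK8IP1, JNK scaffold proteins that link cargo to kinesin-1, with log2 fold changes of 1.23 (SE 0.09, edgeR adjusted p 3.7e-08) and 0.96 (SE 0.11, adjusted p 2.1e-06), and in FEZ1, a kinesin-1 adaptor of neurons, with 1.09 (SE 0.08, adjusted p 3.6e-08). FEZ1 had 17.9, 17.4 and 17.3 TPM with HOTAIR-N siRNA, against 8.46, 8.24 and 8.88 TPM with control siRNA. FEZ2, its relative, rose by 0.56 (adjusted p 4.1e-06). Of the light chains, KLC1 and KLC2 rose by 0.23 and 0.31, while KLC3 and KLC4 had 0.36 and 0.05 and did not pass. The adaptors that fell were TRAK1 (-0.22) and RHOT1 (-0.20), which tie mitochondria to kinesin-1.

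Dynein, the motor that moves cargo the opposite way, was set beside the kinesins. Of 19 tested genes of dynein and its activator dynactin, 8 fell and 3 rose, beside 28.8% and 28.7% of all genes. The share called in either direction was close to the 57.5% of all genes, but more of these calls were falls. DYNC1LI2, a light intermediate chain, had 40.5, 37.6 and 38.7 TPM with HOTAIR-N siRNA, against 73.0, 83.8 and 81.5 TPM with control siRNA (log2 fold change -0.98, SE 0.06, edgeR adjusted p 4e-09). The groups did not overlap, and the related chain DYNC1LI1 had 0.09 and did not pass. DYNLT1, a light chain, and ACTR1B, a subunit of the dynactin filament, rose by 0.68 and 0.50, and the dynactin subunit DCTN3 fell by -0.46.

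Kinesins of cilia and hedgehog signalling were low, at 0.163 to 4.1 TPM with HOTAIR-N siRNA and 0.143 to 4.27 TPM with control siRNA. Of 6, KIF24, which restrains the growth of cilia at centrioles, fell by -0.26 (SE 0.09, edgeR adjusted p 0.015). That call was lost without HOTAIR-N siRNA replicate 2 (-0.23, adjusted p 0.074) or 3 (-0.26, 0.056), or control replicate 2 (-0.20, 0.077). KIF7, a regulator of hedgehog signalling at the tip of cilia, had a log2 fold change of 0.04 and did not pass. KIF6, KIF9 and KIF19, known from motile cilia, and KIF27, a relative of KIF7, did not pass either. KIF6 had 0.33, KIF19 0.24 and KIF27 0.07, and KIF9 averaged 6.94 ± 0.36 CPM with HOTAIR-N siRNA and 6.94 ± 0.58 CPM with control siRNA (SD, n = 3 each). KIF19 rested on 8 to 12 counts per library.

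The other kinesins fell in every tested case, 5 of 5, beside 28.8% of all genes, though the call of KIF26A was lost when any of 3 libraries was left out. KIF26B, an atypical kinesin that acts in WNT5A signalling, had 1.04, 1.32 and 1.40 CPM with HOTAIR-N siRNA, against 4.28, 4.42 and 3.45 CPM with control siRNA (log2 fold change -1.68, SE 0.16, edgeR adjusted p 4.3e-07; against a fold of 1.5, adjusted p 1.9e-05). KIF21B, which slows microtubule growth in neurons and lymphocytes, had 1.07, 1.53 and 1.07 CPM with HOTAIR-N siRNA, against 3.21, 2.84 and 2.63 CPM with control siRNA (-1.24, SE 0.17, adjusted p 2.1e-05; against a fold of 1.5, adjusted p 0.0027). Both stood below 1 TPM with either siRNA. KIF21A, the more abundant relative of KIF21B, had 67.7, 67.6 and 67.7 CPM with HOTAIR-N siRNA, against 85.2, 92.1 and 97.0 CPM with control siRNA (log2 fold change -0.43, SE 0.06, edgeR adjusted p 2.2e-05). KIF2A, a microtubule-depolymerising kinesin of spindle poles and neurons, had 86.6, 86.9 and 84.6 CPM with HOTAIR-N siRNA, against 100.4, 113 and 111 CPM with control siRNA (log2 fold change -0.33, SE 0.06, edgeR adjusted p 0.00022). The groups of KIF21A and KIF2A did not overlap.

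KIF26A, related to KIF26B, had 14.9, 20.4 and 18.9 CPM with HOTAIR-N siRNA, against 24.9, 23.3 and 19.2 CPM with control siRNA. The groups overlapped, and the log2 fold change was -0.31 (SE 0.11, edgeR adjusted p 0.028). The call was lost without HOTAIR-N siRNA replicate 1 (-0.19, adjusted p 0.15), control replicate 1 (-0.22, 0.16) or control replicate 2 (-0.28, 0.087). KIF12, at 5 to 12 counts, and KIF25, at 0 to 3 counts, were too low to be tested.

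Isoforms were then compared. Of 99 kinesin isoforms listed, 73 were tested among 32627 isoforms, and 4 rose and 19 fell, beside 9.39% and 10.1% of all. Among the 19 are both copies of KIFC1, which the annotation lists with equal counts. Isoform use, the share of each isoform within its gene, was tested in 18 kinesins with edgeR's diffSpliceDGE function and passed in 2, KIFC3 and KIF21B, beside 4.13% of 7523 genes. Among the 18, KIFC1 could not pass, since its copies have equal counts. RSEM divides reads shared by isoforms, so the values of isoforms that differ by little sequence are less certain than those of genes.

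KIFC3, a minus-end motor of adherens junctions and apical transport, did not pass as a gene, at 61.5 ± 3.8 TPM with HOTAIR-N siRNA and 66.7 ± 6.2 TPM with control siRNA (SD, n = 3 each; log2 fold change -0.03, edgeR adjusted p 0.77). Its isoform NM_001318714 had 850.3, 916 and 998 expected counts with HOTAIR-N siRNA, against 132, 77.0 and 149 expected counts with control siRNA, a log2 fold change of 3.01 (SE 0.24, edgeR adjusted p 0.0015). It made up 22.7 ± 0.78% of the gene with HOTAIR-N siRNA and 2.73 ± 0.94% with control siRNA. NM_001318710, the most abundant isoform, fell to 38.2 ± 6.0% of the gene with HOTAIR-N siRNA, against 62.7 ± 3.6% with control siRNA (log2 fold change of its counts -0.79, SE 0.15, edgeR adjusted p 0.018). That fall did not pass without HOTAIR-N siRNA replicate 1 (-0.83, adjusted p 0.054) or 2 (-0.69, 0.052) or control replicate 2 (-0.77, 0.060), while the isoform use of KIFC3 passed in every alternative run.

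The KIFC3 isoforms were grouped by their annotated start, a grouping made after these values were seen. On chromosome 16, minus strand of GRCh38, the most upstream linked transcript starts at 57803023 and that of NM_001318714 at 57782309, 20714 bases further downstream. Together, the 3 isoforms that start in the third region made up 28.1, 24.1 and 25.9% of KIFC3 TPM with HOTAIR-N siRNA, against 5.33, 3.60 and 5.46% with control siRNA. The 3 with the most upstream starts made up 51.8 ± 0.73% with HOTAIR-N siRNA and 76.5 ± 2.5% with control siRNA. The second region gave 7.15 ± 1.2% with HOTAIR-N siRNA and 6.78 ± 1.1% with control siRNA, and the fourth gave 15.0 ± 1.7% with HOTAIR-N siRNA and 11.9 ± 2.3% with control siRNA. The opening 60 coding bases of both isoforms, in the GENCODE 29 transcripts linked to them, are printed with the start codon in capitals. They show that the coding sequences open differently. The place in NM_001318710 where the shared part begins lies further on and is not printed.
NM_001318714: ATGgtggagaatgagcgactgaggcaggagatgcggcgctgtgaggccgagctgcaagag
NM_001318710: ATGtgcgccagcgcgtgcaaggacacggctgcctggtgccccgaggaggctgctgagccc

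The whole coding sequence of NM_001318714, 2061 bases for 687 residues, was identical to the 3′ part of that of NM_001318710, which codes for 848 residues. The isoform that rose therefore lacked the opening 161 codons of the other and shared the rest. KIFC kinesins are known to carry their motor domain at the C-terminal end.

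**Figure D4:**
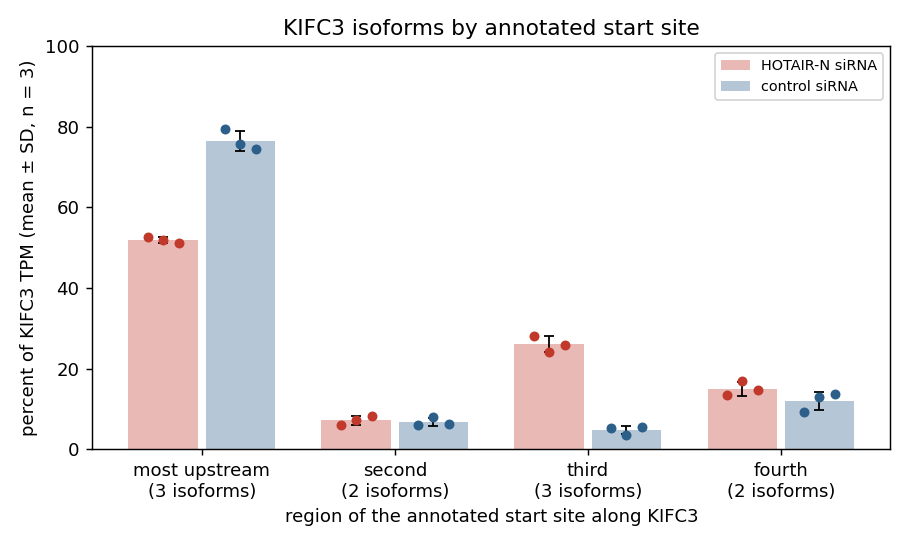
Bars give the mean percent of KIFC3 TPM (± SD, n = 3, points are libraries) from isoforms grouped by annotated start region along the gene, with HOTAIR-N siRNA left of control siRNA. The third region stands at 26.0% with HOTAIR-N siRNA and 4.80% with control siRNA, and the most upstream starts at 51.8% with HOTAIR-N siRNA and 76.5% with control siRNA.

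In KIF21B the pair of isoforms with counts differed. NM_001252103 was listed at 0 counts in all 3 libraries with HOTAIR-N siRNA, against 61.9, 36.1 and 52.2 expected counts with control siRNA (edgeR adjusted p 0.0081). Both values are RSEM's division of reads between isoforms that differ by little sequence, so the 0 is an estimate and not a count of reads, and no fold is given. NM_001252102, which codes for 1623 residues where NM_001252103 codes for 1610, had 35, 52 and 38 expected counts with HOTAIR-N siRNA, against 49.1, 62.9 and 42.8 with control siRNA, and did not pass (log2 fold change -0.26, edgeR adjusted p 0.69). The adjusted p of isoform use was 0.0053, and it rose past the threshold without HOTAIR-N siRNA replicate 2 (0.064) or 3 (0.052).

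In the other kinesins the tests of isoform use did not pass, although that of KIF1A did with the stricter filter (adjusted p 0.033, beside 0.10 with the filter used). KIF1B makes a long isoform, NM_015074 of 1770 residues, and a short one, NM_183416 of 1153 residues, which share the motor domain and differ in their tails. The long isoform fell (log2 fold change -0.41, SE 0.05, edgeR adjusted p 0.0058) and the short one had 0.08 and did not pass, but the test of isoform use gave an adjusted p of 0.5. The KIF2A isoform NM_004520 fell by -0.53 (edgeR adjusted p 0.0056), while NM_001243953 had -0.09. In KIF1A, whose gene total did not pass, NM_001330289 rose by 1.11 (SE 0.17, edgeR adjusted p 0.0098) to 13.8 ± 2.5% of the gene with HOTAIR-N siRNA, against 7.11 ± 0.56% with control siRNA, and NM_004321, the main isoform, had 0.03.

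In the mitotic kinesins with several tested isoforms, the most abundant isoform fell in KIF14 (NM_014875, -0.63), KIF2C (NM_006845, -0.54) and KIF20B (NM_016195, -0.46). The most abundant isoform also fell in KIF18B (NM_001264573, -0.44) and KIF22 (NM_007317, -0.26). The copies of KIFC1, with equal counts, fell alike (NM_002263, -0.26). The test of isoform use did not pass in any of these 6, with the lowest adjusted p in KIF14 (0.078). In KIFC1 that test could not pass, since its copies have equal counts in every library. With a library left out, the fall of the KIF20B isoform was lost in 5 of 6 cases (adjusted p 0.088 to 0.13), that of KIFC1 in 6 of 6 (0.057 to 0.12), and that of KIF22 without HOTAIR-N siRNA replicate 3 (0.058). In KIF21A, NM_001173463 fell as well (-0.49). In KIF13A, KIF16B, KIF17 and KIF27 the same isoform had the highest mean CPM in both groups and did not pass, with log2 fold changes between -0.08 and 0.27. In KIF3A and KIF9 the isoform leading by mean CPM differed between the groups, but single libraries of each group went the other way. These were HOTAIR-N siRNA replicate 1 in both genes, control replicate 3 in KIF3A and control replicate 1 in KIF9. NM_007054 of KIF3A led with HOTAIR-N siRNA (0.22) and NM_001300792 with control siRNA (-0.36), and NM_182902 of KIF9 led with HOTAIR-N siRNA (0.60) and NM_022342 with control siRNA (-0.66). None of the 4 passed.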

How the data were processed

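The 6 libraries were made with a stranded kit after depletion of ribosomal RNA, per the labels. Reads were handled with STAR 2.6.0c and RSEM 1.3.0 on hg19, per the submitters' processing notes. Neither annotation release nor strand setting is given in the sources used here, so overlapping genes and near-identical copies are uncertain. The authors deposited RSEM expected counts and TPM per gene and isoform, per the file headers, with TPM scaled to length within each library, and for isoforms the deposited percent of the gene's TPM.

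Expected counts (10.9% of gene values were not whole) were rounded and tested in edgeR 4.0.16 under R 4.3.3, with filterByExpr, TMM and the robust quasi-likelihood test over all genes or isoforms, as HOTAIR-N siRNA minus control siRNA. The threshold was a Benjamini-Hochberg adjusted p of 0.05. A test against a fold of 1.5 (glmTreat) and diffSpliceDGE with Simes p-values were added. CPM used TMM-scaled libraries. SE is the log2 fold change over the square root of F. The steps were checked on simulated data in which far fewer genes changed than were called here. Depth was 32715361 to 36578681 counts per library.

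Kinesins and lists were chosen with earlier results of these data known. Every kinesin is named. Values per library are given for mitotic and transport kinesins called with a log2 change of at least 0.3, and of other lists up to 4 genes with the smallest p are named. Other genes and values were added after they were seen. RefSeq promoters (GRCh38.p14) and GENCODE 29 transcripts were matched by symbol or RefSeq name, with no coordinates carried over from hg19. The alternatives were RLE, upper-quartile and unscaled sizes, no filter, at least 1 CPM in 3 libraries, each library left out, a replicate block, DESeq2 1.42.0 and limma-voom 3.58.1.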

Additional observations from a re-analysis of the deposited data

How the results depend on the processing

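The direction and call of KIF3B, KIF5A, KIFC2, the 10 mitotic kinesins that fell, KIF21B and KIF26B held under every gene-level alternative run. S phase markers that rose numbered 1, against 2 with upper-quartile or unscaled library sizes, 0 with the replicate block and 0 to 2 with a library left out (2 without control replicate 1). Adaptors that fell numbered 2, against 1 with the replicate block and 1 to 4 with a library left out (4 without control replicate 1). Cilium and hedgehog kinesins that fell numbered 1, or 0 to 1, and dynein and dynactin genes that rose 3, or 2 to 5 (5 without control replicate 2), with a library left out. KIF9, at a log2 fold change of 0 within its error, was 0.0217 with upper-quartile and 0.0212 with unscaled sizes, 0.0113 with the stricter filter, 0.00097 with the replicate block and 0.0014 with limma-voom. With a library left out KIF9 ranged over -0.0692 to 0.0388, KIF7 over -0.0200 to 0.0759 and KIFC3 over -0.0948 to 0.0526. None of these passed the threshold, and the cause was not tested.

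The replicate numbers were not treated as pairs in the main test. Deviations of same-numbered libraries from their group means correlated at -0.12, 0.02 and -0.04, and those of differently numbered libraries at -0.14 to 0.17. With 3 libraries per group these values cannot decide whether same-numbered libraries were handled together. With the replicate block, kinesin isoforms that fell numbered 8 and not 19 (NM_001252103 of KIF21B had an adjusted p of 0.14), and isoform use was called in 1 kinesin and not 2, as it was without HOTAIR-N siRNA replicate 2 or 3. Replicates differed by more than sampling noise, with a chi-square per degree of freedom of 2.06 to 15, highest for control replicate 1. Depth limits KIF19, KIF21B and KIF26B, and the division of shared reads limits isoforms.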

Other observations

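The word GACCAAT came from earlier results of these data, in which genes carrying it tended to be lower, and was looked up in the kinesins as a description. It stood in the 3′ untranslated region of 694 of 12981 tested genes with a region in GENCODE 29, which had a median log2 fold change of -0.37, against 0.01 in the other genes. A single transcript was searched per gene, the one linked to its isoform with the highest mean count, so other 3′ ends were not searched. None of the 35 kinesins searched held the word in that 3′ untranslated region (0 of 35), KIF3B among them. In coding sequence it stood in 889 genes, with a median of -0.23, and in 2 kinesins, KIF1A and KIF26B, whose gene totals had log2 fold changes of 0.14 and -1.68.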
